A study of Rattus norvegicus with 24 samples.

Results

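The genes of polyamine synthesis and breakdown were followed in rat skeletal muscle: the synthetic enzymes Odc1, Amd1, Srm and Sms, the breakdown enzymes Sat1 and Smox, and the regulators Oaz1, Oaz2 and Azin1. They were chosen by gene symbol, which took 12 of the 20027 transcripts in the deposited table, and the values of a gene's transcripts were added up, giving 9 of 15273 genes. In the study, the left hind-limb of male adult Wistar rats was trained once a day by an implanted pulse generator that stimulated the nerves of the leg ("SpillOver" resistance training, in which the ankle flexors contract against their antagonists), while the right hind-limb was left unstimulated. RNA came from the tibialis anterior, the main ankle flexor, of both legs 1 h after the last bout, following 2, 10, 20 or 30 days of training. The labels give 3 animals per time point, hence 24 muscles of 12 animals, although the design text speaks of 4 animals per time point. All 12 contralateral muscles served as 1 pool of controls for the 3 muscles of each time point, a grouping taken over from the original design. The contralateral controls came from the trained animals and so shared their implant, surgery and circulation, and the trained muscles reflect a recent bout together with the training that preceded it.

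Polyamines (putrescine, spermidine and spermine) are small, positively charged molecules that bind nucleic acids and that growing cells need for translation. Ornithine decarboxylase, encoded by Odc1, makes putrescine; Amd1 encodes the S-adenosylmethionine decarboxylase that supplies the aminopropyl groups, which spermidine synthase (Srm) and spermine synthase (Sms) transfer to make spermidine and then spermine. Sat1 encodes the acetyltransferase that marks spermidine and spermine for export or oxidation, and Smox encodes the oxidase that turns spermine back into spermidine. Antizymes (Oaz1, Oaz2) bind ornithine decarboxylase, send it to the proteasome and lower polyamine uptake, and the antizyme inhibitor Azin1 binds the antizymes in its place. Much of this control acts on translation and on protein turnover, which mRNA levels do not show.

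The deposited values are TPM-type, scaled for transcript length to 1 total for every sample, so that genes can be compared with each other but sequencing depth cannot be read from them. Each sample was divided by a median-of-ratios factor of 0.778 to 1.14, and limma was run on log2(value + 1) for the 11196 genes that reached 1 in 3 or more muscles. All 9 genes passed this filter. Differences below are on the log2(value + 1) scale, which understates the change of low genes such as Smox, and adjusted p means Benjamini-Hochberg over all genes tested. The median gene lay within 0.03 of no change in each comparison with controls, whereas the values as deposited put it at -0.18 at 30 days. The share of mitochondrial transcripts moved with the time point as well, from 23.4 to 28.5% in the muscles trained for 2 or 10 days to 39.9 to 43.9% at 30 days, against 27.8 to 43.7% in controls, where the highest share belonged to the control library of 30 days replicate 1. No member differed among the 4 contralateral groups (limma F test, 0 of 9, lowest unadjusted p = 0.273), where 0.152% of all genes did. The labelled tissue carried its markers: Ckm, Acta1, Mb, Tnnt3 and Des added up to between 57407 and 69714 in controls.

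Promoters of 8 members were found among the RefSeq promoter sequences of build GRCr8, and none for Azin1. The bases before the annotated start are shown for Sat1, the member that rose most, for Amd1, for Oaz2, which was lower at the first time point, and for Oaz1, the most abundant member. Sat1 lies at chrX:44007839-44008088 (plus strand), Amd1 at chr20:45265983-45266232 (minus strand, inside the annotated gene span), Oaz2 at chr8:75094567-75094816 (plus strand) and Oaz1 at chr7:9536991-9537240 (minus strand). Each run ends at the base before the start, and capitals mark short motifs found on either strand. The GC box, which Sp-family factors bind, was searched as GGGCGG. The letters of the TATA box, a core promoter element, were TATAAA in this search. For the E-box, which Myc binds together with Max, they were CACGTG.
Sat1: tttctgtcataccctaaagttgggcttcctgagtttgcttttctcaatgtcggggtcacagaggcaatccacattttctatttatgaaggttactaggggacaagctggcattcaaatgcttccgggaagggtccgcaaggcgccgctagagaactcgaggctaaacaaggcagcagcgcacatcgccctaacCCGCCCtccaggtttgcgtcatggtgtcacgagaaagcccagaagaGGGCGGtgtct
Amd1: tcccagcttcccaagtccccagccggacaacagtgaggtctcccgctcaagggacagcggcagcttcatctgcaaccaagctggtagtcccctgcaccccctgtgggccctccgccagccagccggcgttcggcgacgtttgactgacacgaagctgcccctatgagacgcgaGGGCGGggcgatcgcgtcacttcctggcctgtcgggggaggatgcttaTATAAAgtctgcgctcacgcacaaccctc
Oaz2: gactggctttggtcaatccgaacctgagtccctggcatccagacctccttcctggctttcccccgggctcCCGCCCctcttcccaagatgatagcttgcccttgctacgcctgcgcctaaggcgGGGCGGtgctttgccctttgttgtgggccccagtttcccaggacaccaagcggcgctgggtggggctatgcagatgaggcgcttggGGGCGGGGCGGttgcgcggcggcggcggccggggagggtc
Oaz1: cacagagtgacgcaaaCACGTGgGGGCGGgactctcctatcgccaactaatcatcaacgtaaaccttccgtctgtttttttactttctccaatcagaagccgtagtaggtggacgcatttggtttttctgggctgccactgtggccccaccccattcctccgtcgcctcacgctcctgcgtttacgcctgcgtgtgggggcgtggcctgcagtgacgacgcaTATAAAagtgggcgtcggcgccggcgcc
Over the 250 bases before the start, a GC box was found in 7 of the 8 members and in 30.5% of 33469 promoters. An E-box was found in Srm and Oaz1 and in 5.59% of all promoters, and a TATA box in Amd1 and Oaz1 and in 12.9%. Neither the AP-1 site (TGACTCA, 4.05% of promoters) nor the cAMP response element (TGACGTCA, 1.59%) was found in any of the 8. The windows of Smox, Odc1 and Sms also overlap their annotated gene spans.

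In control muscle the antizymes were the most abundant mRNAs of the group. On the rescaled TPM-type scale, Oaz1 averaged 195 ± 19.4 (SD, n = 12), which was 4.14 times the mean of Oaz2, the next gene. Oaz2 (47.1 ± 5.78) and Odc1 (37.5 ± 5.13) overlapped in range, and both lay above Amd1 (23.6 ± 2.12) and Azin1 (13.0 ± 1.40) in every control muscle. Sms (7.47 ± 1.38), Sat1 (6.29 ± 1.44), Srm (5.37 ± 2.87) and Smox (4.09 ± 0.561) followed, with each overlapping the next. Odc1 and Amd1 of the synthetic route were thus above Sat1 and Smox of the breakdown route in every control muscle. The plot of each muscle shows all 9 genes in the 5 groups.

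**Figure D1:**
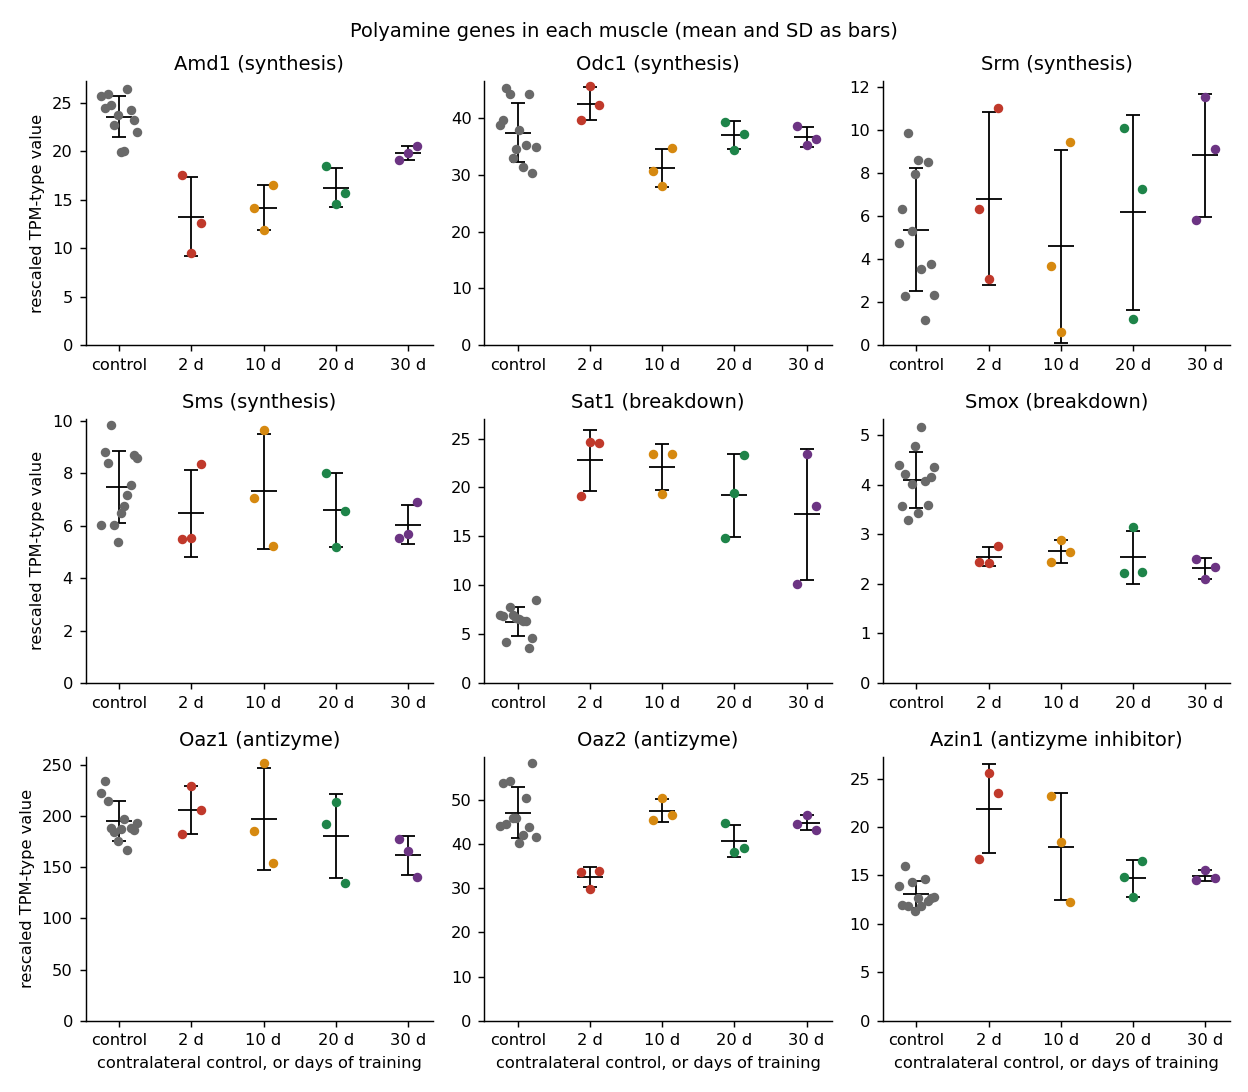
Rescaled TPM-type value of each gene (vertical axes, starting at 0) in the 12 contralateral control muscles and in 3 muscles after each of 2, 10, 20 and 30 days of training; points are muscles, and bars give the mean and SD. All 12 trained muscles lie above the controls for Sat1 (10.2 or higher against at most 8.53) and below them for Smox (at most 3.16 against 3.28 or higher).

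Sat1, the acetyltransferase that opens polyamine breakdown, rose at every time point. In controls it ranged from 3.63 to 8.53 with a median of 6.62. The muscles trained for 2 days had values of 19.2, 24.7 and 24.5. Those trained for 10 days had 23.4, 19.4 and 23.5. All 6 of these lay more than 2 times above the highest control. After 20 days the values were 14.9, 19.5 and 23.3. After 30 days they were 10.2, 23.4 and 18.1. Every trained muscle lay above every control muscle. The ratio of means was 3.62, 3.51, 3.06 and 2.74 at 2, 10, 20 and 30 days.

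The log2 difference of Sat1 was 1.73 at 2 days (95% interval 1.32 to 2.14, adjusted p = 5.28e-07) and 1.69 at 10 days (1.28 to 2.10, adjusted p = 6.70e-07). It was 1.48 at 20 days (1.07 to 1.89, adjusted p = 7.12e-06) and 1.28 at 30 days (0.87 to 1.69, adjusted p = 5.87e-05). Sat1 was higher at all 4 time points, as were 5.24% of all genes tested, and above all controls in all 12 trained muscles, as were 2.93%. The difference between 30 and 2 days, -0.45 (95% interval -0.96 to 0.07, adjusted p = 0.245), did not pass the threshold. Within animals, the trained muscle held 2.13 to 5.85 times the Sat1 of its own contralateral muscle, in 12 of 12 animals.

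Markers of cells other than muscle fibers moved in the same muscles. Of 10 macrophage markers, 8, 9, 10 and 10 were higher at 2, 10, 20 and 30 days, and their summed level was 18.5 to 45.3 in controls and 57.1 to 176 in the trained muscles. All 5 fibroblast markers except Dcn at 2 days were higher at each time point, with a summed level of 74.6 to 253 in controls and 301 to 982 in the trained muscles. Of all genes tested, 15.4%, 15.6%, 11.7% and 11.1% were higher at 2, 10, 20 and 30 days. Of the T and B cell markers only Cd4, which macrophages of the rat also carry, passed the filter, and it was higher from 10 days on. S100a8 and S100a9, which mark neutrophils, stayed under the filter. Among 4 endothelial markers tested, Cdh5 was higher at 10, 20 and 30 days, Vwf at 10 days, and Kdr lower at 2 days. Of 3 satellite cell markers tested, Myf5 was higher at 2 and 10 days and Chrdl2 lower at 2 days. Mbp, a marker of Schwann cells, was lower at 30 days, and no adipocyte (3 tested) or erythroid marker (2 tested) passed at any time point. Muscle fiber markers moved in both directions, with Des higher at 2 (log2 difference 0.90), 10 and 20 days and Ckm lower from 10 days on (-0.52 at that time). With animal as a block, the calls named here that were lost were Ckm at 20 and 30 days (adjusted p = 0.127 and 0.0577), Myf5 at 2 and 10 days (0.0880 and 0.0533), Chrdl2 (0.274) and Kdr (0.0790) at 2 days, and Cdh5 (0.0721) and Mbp (0.0729) at 30 days. The block also ended the calls of Aif1, a macrophage marker, at 10 days (0.109) and of Pdgfra, a fibroblast marker, at 20 and 30 days (0.0523 and 0.177). Other calls were gained with the block. At 2 days these were Cd4 (adjusted p = 0.00107), the fibroblast marker Dcn (0.00696) and the macrophage markers Adgre1 (0.0194) and Cd163 (0.0256). Of the satellite cell markers, Cdh15 passed in this way at 10 days (0.0293) and Myf5 at 30 days (0.0466). In bulk muscle, fewer cells of a type and less RNA per cell cannot be told apart, and the part of these cells in the changes of Sat1 and the other members was not tested.

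Smox, the spermine oxidase, fell at every time point by a similar amount. Its control values ranged from 3.28 to 5.17 with a median of 4.12. The muscles trained for 2 days had 2.44, 2.43 and 2.77, and those trained for 10 days had 2.44, 2.89 and 2.63. After 20 days the values were 2.21, 3.16 and 2.24, and after 30 days 2.50, 2.09 and 2.34. No trained muscle reached the lowest control, and the mean of the trained groups was 56.5 to 64.9% of the control mean. The log2 difference was -0.52 at 2 days (adjusted p = 4.88e-04), -0.47 at 10 days (adjusted p = 0.00109), -0.53 at 20 days (adjusted p = 5.31e-04) and -0.61 at 30 days (95% interval -0.83 to -0.40, adjusted p = 1.33e-04). Smox was lower at all 4 time points, as were 2.95% of all genes, and below all controls in all 12 trained muscles, as were 1.30%. The trained muscle had less Smox than its own contralateral muscle in 12 of 12 animals, with ratios of 0.503 to 0.743.

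Smox is quantified as a pair of transcripts of similar level, the first of which made up 54.7% and the other 45.3% of the gene's value. The first averaged 2.38 ± 0.568 in controls (SD, n = 12) and 1.12 to 1.37 in the trained groups. The other averaged 1.71 ± 0.601 in controls and 1.16 to 1.53 in the trained groups. Both means were lower in every trained group, and at these levels the split between the pair was noisy from muscle to muscle. The plot of both muscles of each animal shows Sat1 and Smox moving in opposite directions.

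**Figure D2:**
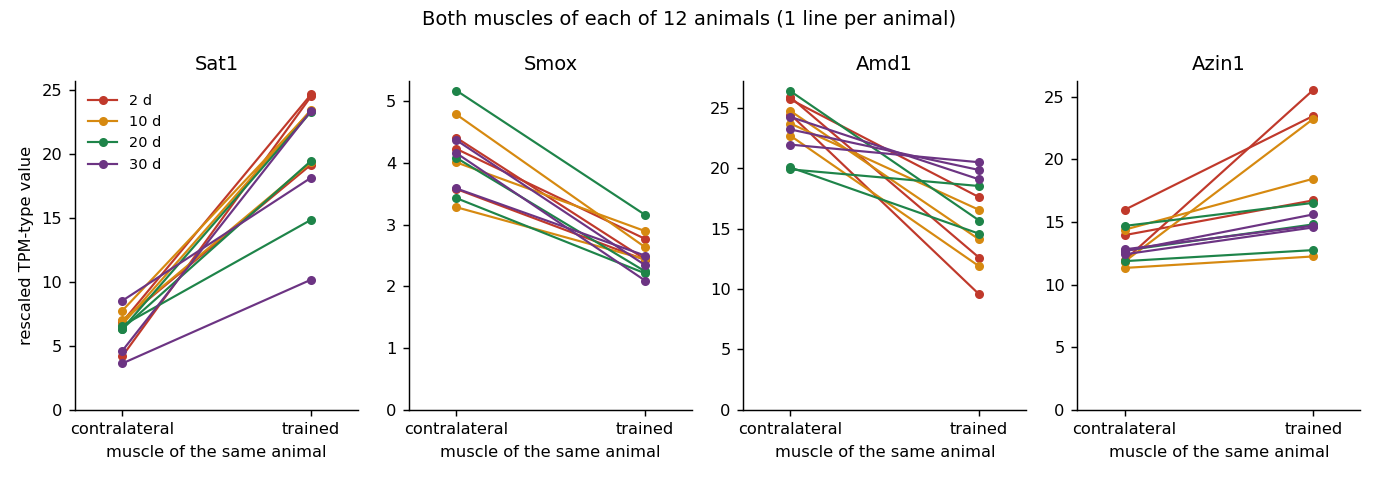
Rescaled TPM-type value (vertical axes, starting at 0) of Sat1, Smox, Amd1 and Azin1 in the contralateral and the trained muscle of each animal, joined by 1 line per animal and colored by days of training (3 animals each). Sat1 and Azin1 were higher, and Smox and Amd1 lower, in the trained muscle of all 12 animals.

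Amd1, which makes the aminopropyl donor for spermidine and spermine, fell at 2, 10 and 20 days, with a smaller difference at each later time point. Control muscles ranged from 19.9 to 26.4 with a median of 23.97. The muscles trained for 2 days had 17.6, 9.56 and 12.6, and those trained for 10 days had 14.1, 11.9 and 16.5. After 20 days the values were 18.5, 14.6 and 15.7, and after 30 days 19.1, 19.9 and 20.5. Muscles trained for 2, 10 or 20 days lay below all controls, whereas of the 30-day group 2 lay just below the lowest control and 1 within the control range. How many of all genes were separated like this at a single time point was not computed. The group means were 56.2, 60.1, 69.0 and 84.0% of the control mean at 2, 10, 20 and 30 days.

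The log2 difference of Amd1 was -0.82 at 2 days (95% interval -1.07 to -0.57, adjusted p = 2.10e-05), -0.70 at 10 days (-0.96 to -0.45, adjusted p = 1.16e-04) and -0.51 at 20 days (-0.77 to -0.26, adjusted p = 0.00372). At 30 days it was -0.24 (-0.49 to 0.02, adjusted p = 0.184). With animal as a block, the 20-day difference was -0.42 and did not pass (adjusted p = 0.0777), whereas the 30-day difference did pass without the rescaling (-0.45, adjusted p = 0.0157) and in the authors' gene-level table, which holds 7 of the 9 members and is scaled differently (-0.56, adjusted p = 9.65e-04). In that table the earlier differences of -0.52, -0.40 and -0.48 at 2, 10 and 20 days passed as well and did not shrink with time. The 30-day muscles had more Amd1 than the 2-day muscles, by 0.58 (95% interval 0.26 to 0.91, adjusted p = 0.0126). The difference between time points was lost with animal as a block (0.71, adjusted p = 0.0933), without the 2-day muscle of replicate 2 (0.39, adjusted p = 0.132) and without the rescaling (0.27, adjusted p = 0.249). The trained muscle had less Amd1 than its own contralateral muscle in 12 of 12 animals, with ratios of 0.391 to 0.933.

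Odc1, the first enzyme of the pathway, did not pass the test at any time point. Its control values ranged from 30.3 to 45.4 with a median of 36.6. After 2 days the values were 39.7, 45.6 and 42.3, and after 10 days 30.6, 28.1 and 34.8. After 20 days they were 39.3, 34.4 and 37.2, and after 30 days 38.6, 35.2 and 36.4. Nearly all lay within the control range, with 1 muscle above it at 2 days and 1 below it at 10 days. The log2 difference was 0.19 at 2 days (95% interval -0.04 to 0.41, adjusted p = 0.199), -0.25 at 10 days (-0.48 to -0.03, adjusted p = 0.0882), -0.01 at 20 days (-0.23 to 0.22) and -0.02 at 30 days (-0.24 to 0.21). In this fit the intervals at 20 and 30 days reach no further than 0.24 either way. With animal as a block they were wider on the upper side, -0.18 to 0.35 at 20 days and -0.24 to 0.29 at 30 days. Of its 2 transcripts in the table, the main one made up 72.0% of the gene's value and the other 28.0%. In the gene-level table, Odc1 passed as higher at 2 days (0.32, adjusted p = 0.0288) and as lower at 30 days (-0.46, adjusted p = 0.00140).

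Srm and Sms, the aminopropyl transferases, did not pass at any time point either. Sms ranged from 5.38 to 9.82 in controls and from 5.19 to 9.62 in the trained muscles. Its log2 differences were -0.19, -0.04, -0.16 and -0.26 at 2, 10, 20 and 30 days, with an interval of -0.59 to 0.08 and adjusted p = 0.283 at 30 days. Without the rescaling, Sms passed as lower at 30 days (-0.44, adjusted p = 0.0279). Srm had the widest relative spread of the 9 genes in controls, with values of 1.19 to 9.84 in controls and 0.607 to 11.5 in trained muscles. Its differences of 0.31, -0.41, 0.04 and 0.73 had intervals of more than 1 on either side; the interval at 30 days, -0.30 to 1.77, covers the change seen in Sat1. The row named Srm (ENSRNOG00000046379) lies at chr3:14588870-14591975 in Rnor_6.0, whereas RefSeq places Srm on chromosome 5 of GRCr8, and whether this row measures the active gene was not tested.

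Oaz2, an antizyme, fell after 2 days of training and did not pass the test at later time points. Control muscles ranged from 40.3 to 58.4 with a median of 45.2. After 2 days the values were 33.8, 29.9 and 33.9, and after 10 days 45.5, 50.5 and 46.6. After 20 days they were 44.8, 38.2 and 39.2, and after 30 days 44.6, 46.7 and 43.3. All 3 muscles of the 2-day group lay below every control, and 2 of the 20-day group did so. The share of all genes separated like this at a single time point was not computed. The log2 difference was -0.52 at 2 days (95% interval -0.72 to -0.31, adjusted p = 3.61e-04). It was 0.02 at 10 days (-0.19 to 0.23), -0.20 at 20 days (-0.41 to 0.01, adjusted p = 0.165) and -0.06 at 30 days (-0.27 to 0.14). In the gene-level table the 2-day difference was -0.22 and did not pass (adjusted p = 0.0667), whereas the 30-day difference did pass there (-0.34, adjusted p = 0.00310) and without the rescaling (-0.28, adjusted p = 0.0492).

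Oaz1, the most abundant member, did not pass at any time point. It ranged from 167 to 234 in controls and from 134 to 252 in trained muscles. Its log2 differences were 0.08, -0.01, -0.14 and -0.27 at 2, 10, 20 and 30 days, the last with a 95% interval of -0.55 to 0.00 and adjusted p = 0.156. The contralateral muscles of the 2-day animals had 222, 234 and 215, above all other controls. In each of these 3 animals the trained muscle was the lower one, with ratios of 0.821 to 0.980. With animal as a block the 2-day difference was -0.12 (adjusted p = 0.574). Without the rescaling and in the gene-level table, Oaz1 passed as lower at 30 days, by -0.49 (adjusted p = 0.00919) and -0.72 (adjusted p = 9.01e-04).

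Azin1, the antizyme inhibitor, rose early in training. Control muscles ranged from 11.3 to 16.0 with a median of 12.7. After 2 days the values were 16.7, 25.5 and 23.5, all above the controls, a separation for which the share of all genes was not computed. After 10 days they were 23.2, 18.4 and 12.2, the last of which lay within the control range. After 20 days the values were 14.8, 12.7 and 16.5, and after 30 days 14.6, 15.6 and 14.7. Means at the later time points were 1.13 and 1.15 times the control mean, against 1.68 at 2 days. The log2 difference was 0.69 at 2 days (95% interval 0.41 to 0.97, adjusted p = 4.25e-04) and 0.40 at 10 days (0.12 to 0.68, adjusted p = 0.0298). At 20 and 30 days it was 0.16 (-0.12 to 0.44, adjusted p = 0.450) and 0.19 (-0.09 to 0.47, adjusted p = 0.352).

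The 10-day call of Azin1 was lost with animal as a block (0.45, adjusted p = 0.0632), without the trained muscle of replicate 1 (0.20, adjusted p = 0.378) and without that of replicate 2 (0.36, adjusted p = 0.124). Within animals of all time points, the trained muscle had more Azin1 than its own contralateral muscle in 12 of 12 animals, with ratios of 1.07 to 2.14. The 3 animals of 10 days had ratios of 1.08, 1.28 and 1.96, and those of 20 and 30 days 1.07 to 1.23. For such counts of pairs the share of all genes was not computed. Of its 2 transcripts, the main one made up 86.0% of the value and averaged 11.3 ± 1.53 in controls and 18.4 ± 3.99 (SD, n = 3) at 2 days. The other averaged 1.72 ± 0.692 in controls and 3.47 ± 2.20 at 2 days.

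**Figure D3:**
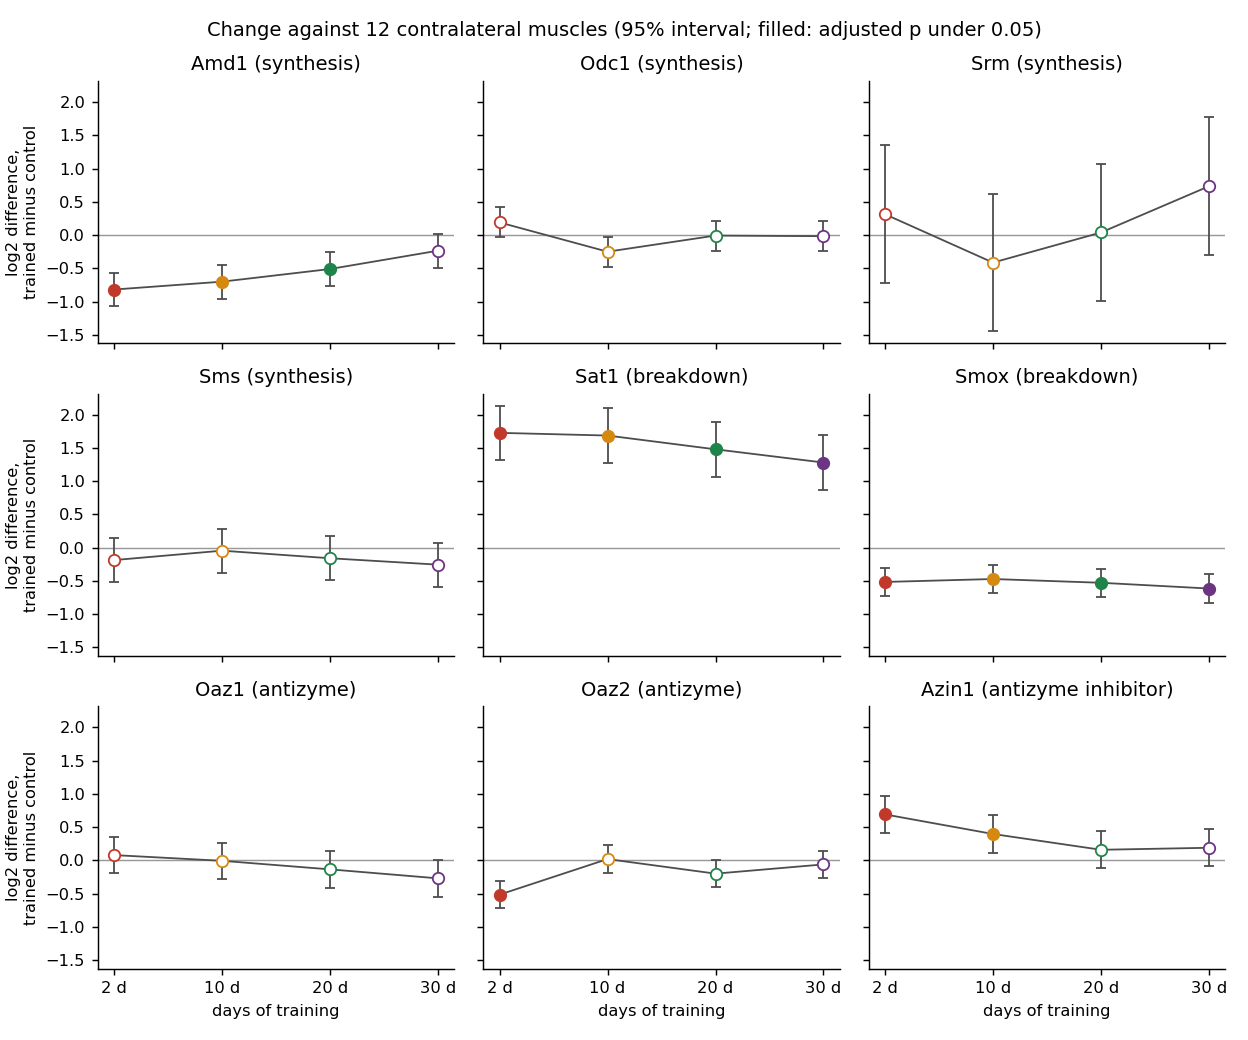
Log2 difference between the trained muscles of each time point (n = 3) and the 12 contralateral muscles, on the log2(value + 1) scale, for each gene; bars are 95% intervals of the limma fit and filled points passed at an adjusted p under 0.05. Sat1 stays between 1.28 and 1.73 and Smox between -0.61 and -0.47, while Amd1 moves from -0.82 at 2 days to -0.24 at 30 days and Azin1 from 0.69 to 0.19.

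At 2 days, 2 of the 9 genes were higher (Sat1, Azin1) and 3 lower (Smox, Amd1, Oaz2), where 15.4% of all genes were higher and 13.5% lower. At 10 days 2 were higher (Sat1, Azin1) and 2 lower (Smox, Amd1), against 15.6% and 13.3% of all genes. At 20 days Sat1 was higher and Smox and Amd1 were lower, against 11.7% and 9.64%. At 30 days Sat1 was higher and Smox was lower, against 11.1% and 9.46%. The count of changed members was 5, 4, 3 and 2 at the successive time points, but the fall in this count depended on the scaling, since 5 members were lower at 30 days without the rescaling and 4 in the gene-level table. The share of all genes that changed was also lower at 20 and 30 days than at 2 and 10 days. The median log2 difference of the 9 genes was 0.08, -0.04, -0.14 and -0.06 at the 4 time points, against -0.01, -0.03, -0.03 and -0.01 for all genes. The 4 comparisons share the same controls, so their calls are not independent of each other.

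The time points were then compared directly among the trained muscles. Between 10 and 2 days, Oaz2 was the only member that passed, higher by 0.54 at 10 days (95% interval 0.27 to 0.80, adjusted p = 0.0269), where 1.93% of all genes passed. Between 30 and 2 days, where 15.0% of all genes passed, Amd1 and Oaz2 were higher and Azin1 lower at 30 days. Oaz2 differed by 0.45 (0.19 to 0.71, adjusted p = 0.0161), a difference that was 0.12 and did not pass without the rescaling (adjusted p = 0.515), and Azin1 by -0.50 (-0.86 to -0.15, adjusted p = 0.0497). No member passed between 20 and 2 days, 20 and 10 days or 30 and 20 days, where 8.05%, 0.170% and 0.0357% of all genes did. With animal as a block, which compares the difference between the muscles of an animal, no member passed in any of these comparisons: Oaz2 gave 0.50 for 10 against 2 days (adjusted p = 0.465) and 0.45 for 30 against 2 days (adjusted p = 0.227), and Azin1 gave -0.38 (adjusted p = 0.397). The values for Sat1 and Smox between 30 and 2 days, -0.45 and -0.10, did not pass.

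Over all 12 animals, with the muscles of an animal compared with each other and the 4 time points averaged, Sat1 and Azin1 were higher and Smox and Amd1 lower, where 19.7% of all genes were higher and 20.5% lower. Sat1 differed by 1.54 (95% interval 1.33 to 1.76, adjusted p = 1.68e-08) and Smox by -0.53 (-0.65 to -0.41, adjusted p = 1.78e-06). Amd1 differed by -0.57 (-0.78 to -0.36, adjusted p = 2.42e-04) and Azin1 by 0.36 (0.18 to 0.54, adjusted p = 0.00347). Oaz2 had a log2 difference of -0.19 and did not pass (adjusted p = 0.0767). Odc1 differed by -0.02 with the narrowest interval of the genes that did not pass, -0.16 to 0.12, and Sms (-0.16), Oaz1 (-0.08) and Srm (0.17) did not pass.

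Ratios of 2 genes in the same muscle do not depend on how the samples are scaled, and such ratios, chosen after the values were seen, are given with no test. That of Odc1 to Oaz1, which is not plotted, was 0.193 ± 0.0263 in controls and 0.204 ± 0.0437 in all trained muscles (SD, n = 12 each). It was higher in the trained muscle of 8 of 12 animals. The ratio of Sat1 to Amd1 was 0.270 ± 0.0711 (SD, n = 12) in controls and 1.87 ± 0.748, 1.57 ± 0.131, 1.21 ± 0.360 and 0.866 ± 0.323 (n = 3 each) at 2, 10, 20 and 30 days. Its lowest trained value, 0.533, lay above its highest control value, 0.388. The ratio of Sat1 to Smox, both genes of breakdown, was 1.56 ± 0.433 in controls and 7.67 to 8.96 on average in the trained groups. The ratio of Amd1 to Odc1 was 0.637 ± 0.0774 in controls and 0.317 ± 0.118 at 2 days, and reached 0.541 ± 0.0401 at 30 days. The ratio of Azin1 to Oaz2 was 0.281 ± 0.0457 in controls and 0.681 ± 0.180 at 2 days, and 0.333 ± 0.00662 at 30 days. 

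**Figure D4:**
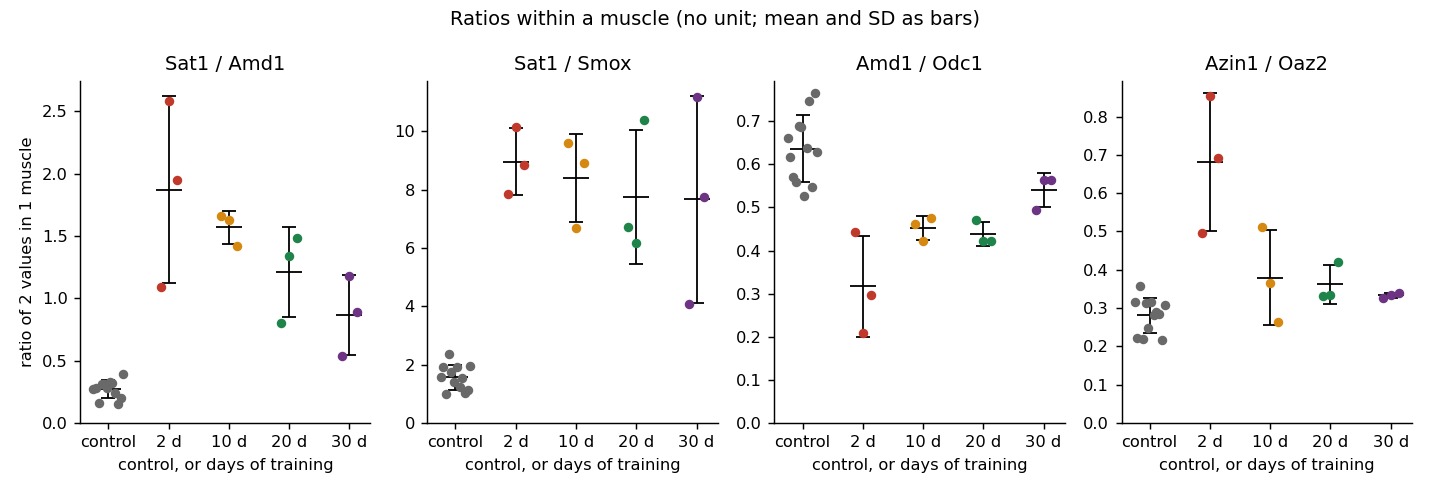
Ratio of the values of 2 genes in the same muscle (no unit, vertical axes starting at 0) in the 12 contralateral control muscles and in 3 muscles per time point; points are muscles, and bars give the mean and SD. Sat1 to Amd1 and Sat1 to Smox lie above all controls in all 12 trained muscles. For Sat1 to Smox this follows from Sat1 lying above, and Smox below, all controls in each trained muscle. Azin1 to Oaz2 reaches 0.854 at 2 days and is between 0.326 and 0.339 at 30 days.

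Genes around the pathway were read from lists of transport, methionine, ornithine, hypusination and Myc genes. Of 9 genes of polyamine transport, 3 passed the filter, and 0, 2, 2 and 3 of them were lower at 2, 10, 20 and 30 days, with none higher. Of all genes tested, 13.5%, 13.3%, 9.64% and 9.46% were lower at these times. Slc3a2, a subunit of amino acid exchangers that has been linked to polyamine export, went from 34.0 ± 6.16 in controls to 20.2 ± 2.54 (SD, n = 3) at 30 days (log2 difference -0.71, adjusted p = 5.15e-04). It differed by -0.52 at 10 days, which did not pass in the gene-level table (-0.24, adjusted p = 0.256), and by -0.54 at 20 days, lost with animal as a block (adjusted p = 0.0935) and without the trained muscle of replicate 3. Atp13a2, the lysosomal polyamine exporter, went from 4.93 ± 0.818 to 2.55 ± 0.706 at 30 days (-0.74, adjusted p = 5.38e-04). Its differences of -0.43 at 10 days and -0.40 at 20 days were lost with animal as a block (adjusted p = 0.121 and 0.0514) and without a single trained muscle (replicate 1 or 2 at 10 days, replicate 1 or 3 at 20 days). At 2 days Atp13a2 did not pass in the main fit (-0.33, adjusted p = 0.0804) but did with animal as a block (adjusted p = 0.0371). Slc18b1, a vesicular polyamine transporter, differed by -0.38 at 30 days (adjusted p = 0.0447), a call lost with animal as a block (adjusted p = 0.160) and without any 1 of the trained muscles.

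Of 15 genes of the methionine cycle and salvage, which supplies S-adenosylmethionine to Amd1 and recycles its by-product, 12 were tested. None was higher, and 4, 2, 1 and 1 were lower at 2, 10, 20 and 30 days, where 13.5%, 13.3%, 9.64% and 9.46% of all genes were lower. The counts at 10, 20 and 30 days were near that background. At 2 days these were Adi1, an enzyme of methionine salvage (15.6 ± 1.83 in controls and 9.34 ± 0.836 when trained, -0.68, adjusted p = 7.55e-05), Mat2b, a subunit of methionine adenosyltransferase (-0.43, adjusted p = 1.10e-04), Mtrr, which reactivates methionine synthase (-0.49, adjusted p = 9.95e-04), and Mri1, of the salvage route (-0.48, adjusted p = 0.00470). In the gene-level table Mat2b (-0.17, adjusted p = 0.165) and Mtrr (-0.16, adjusted p = 0.191) did not pass at 2 days, nor did Mat2b with its transcript of highest mean (-0.23, adjusted p = 0.298). Mat2a did not pass at 2 days in the main fit (-0.26, adjusted p = 0.179) but did with animal as a block (adjusted p = 0.0475). Mtrr was also lower at 10 (-0.37) and 20 days (-0.29), and Mri1 at 10 (-0.37) and 30 days (-0.42), and each of these later calls was lost with animal as a block (adjusted p = 0.0629 to 0.144). Mri1 at 10 days and Mtrr at 20 days were also lost without single trained muscles, as was Mri1 at 30 days. The median of the 12 genes was -0.15 at 2 days and -0.05 at 30 days.

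Of 7 other polyamine enzymes and regulators, only Paox and Sat2 passed the filter, and Paox, an oxidase that acts on acetylated polyamines, was lower at 10 days (-0.45, adjusted p = 0.0272), a call lost without the trained muscle of replicate 2 or 3. Of 4 genes of ornithine supply and use that were tested, of 9 listed, the mitochondrial ornithine carrier Slc25a15 was lower at 2 days (-0.34, adjusted p = 0.0111), lost with animal as a block (adjusted p = 0.0784) and without replicate 2. Asl, argininosuccinate lyase, was higher at 10 days (0.51, adjusted p = 0.00818), lost without replicate 1. Slc7a2, of the same list, did not pass at 2 days (-0.46, adjusted p = 0.0693) but did with animal as a block (adjusted p = 0.0387). Arg1 and Arg2, the arginases that make ornithine, stayed under the filter. Of 3 genes of hypusination tested, the modification of Eif5a that spermidine is used for, Dohh was lower at 30 days (-0.60, adjusted p = 0.00730), lost with animal as a block (adjusted p = 0.0815) and without replicate 3, while Eif5a and Dhps did not pass at any time point.

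Myc, a transcription factor for which Odc1 is a textbook target, was higher at all 4 time points. It went from 1.40 ± 0.736 in controls to 17.1 ± 4.81 at 2 days (log2 difference 2.93, adjusted p = 2.94e-09), 13.8 ± 2.62 at 10 days (2.66, adjusted p = 1.26e-08), 9.89 ± 3.24 at 20 days (2.19, adjusted p = 4.34e-07) and 5.37 ± 1.27 at 30 days (1.45, adjusted p = 1.33e-04). Its antagonist Mxi1 was lower at all 4, from 42.0 ± 4.22 in controls to 23.4 ± 1.45 at 10 days (-0.81, adjusted p = 3.72e-07), although its 30-day call was lost with the transcript of highest mean (-0.17, adjusted p = 0.541). Of the other 4 partners, Mxd1 was higher at 2 days (0.50, adjusted p = 0.00182; with animal as a block 0.0514), Mnt higher at 20 days (0.48, adjusted p = 0.00324) and its partner Max lower at 30 days (-0.38, adjusted p = 0.0150; with animal as a block 0.0881). Each of these 3 calls was lost without 1 of the trained muscles (replicate 2 for Mxd1 and Mnt, replicate 3 for Max), and Mlx did not pass at any time point. Odc1 did not pass in the main fit. In the gene-level table it was higher at 2 days (0.32, adjusted p = 0.0288) and lower at 30 days (-0.46, adjusted p = 0.00140). Whether Myc acts on Odc1 in these muscles was not tested.

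The genes whose log2 values most resembled each member over the 24 muscles were sought among 3835 genes with a mean of at least 10, as a description in which group differences and shared libraries both enter. For Sat1 they were Egr1 (Pearson r = 0.95), the immediate early transcription factor, and Hspa1b (0.94), a heat shock protein. Egr1 averaged 4.28 in control and 90.1 in trained muscles, and Hspa1b 8.83 and 192. For Amd1 they were Dcaf6 (0.95), a row with no standard symbol (0.94) and Sar1b (0.94), of vesicle transport, which averaged 334 in control and 175 in trained muscles. For Smox they were Cyhr1 (0.91), St3gal1 (0.90) and Rere (0.89), and for Azin1 Lmcd1 (0.89), Wdr26 (0.88) and LOC298139 (0.88). Oaz1 went with Cenpb (0.91), Mbd3 (0.89) and Puf60 (0.88), and Oaz2 with Ss18l2 (0.83), Cetn2 (0.80) and Scp2 (0.77). The closest genes to Odc1, Sms and Srm had r of 0.67, 0.75 and 0.64, lower than for the other members. Those others include Oaz1, which did not pass at any time point. Among members, Sat1 ran opposite to Smox (r = -0.82) and to Amd1 (r = -0.81), over all 24 muscles with group differences included.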

How the data were processed

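RNA-sequencing of 24 rat muscles was analysed, the trained and the contralateral tibialis anterior of 12 animals. The authors trimmed reads below a Phred score of 25, aligned them with STAR in Partek Flow to Rnor_6.0 (rn6), and quantified them against Ensembl release 99. The submitters' processing notes also name DESeq2. The deposited transcript table held TPM-type values (the same total in every sample), not counts, so no count model was used. The depth of each sample cannot be read from such values, and the paper's text gives only a lower bound on reads per sample. A second table deposited by the authors, with signal values for 4635 genes of a differently scaled quantification, served as an alternative. The table of the authors' own comparisons (p-values, FDR, ratios, fold changes) was not used.

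Values were divided by median-of-ratios factors (based on 16230 transcripts with no zero in any muscle) and summed per gene symbol. Genes reaching 1 in 3 or more samples were kept, and log2(value + 1) was fitted with limma 3.58.1 (R 4.3.3) and Benjamini-Hochberg adjustment over all genes, with an adjusted p under 0.05 as the threshold. All 24 muscles entered 1 fit with 5 groups, as in the study's comparisons; contrasts between trained groups came from the same fit, the F test from a fit of 8 groups, and the comparison over all animals from a fit with animal as a block. The labels place both muscles in the same animal. After removal of group means, the muscles of 1 animal correlated with a median r of 0.174 (0.0277 to 0.343, above 0.1 in 8 of 12 animals), against -0.00964 between animals. P-values of the fit with 5 groups rest on a spread pooled over all 24 muscles and moderated across genes, with 3 trained muscles per time point. That fit treats both muscles of an animal as independent. No pair of libraries was identical (0 of 276).

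The alternatives were the values as deposited, a pseudocount of 0.1, no filter, a mean of at least 10, animal as a block, controls of the same time point, the transcript with the highest mean, the gene-level table, an unadjusted p under 0.01, an intensity trend, and leaving out single libraries. On simulated data for the 2-day comparison, with 200 changed genes of 11196 and 10 draws, 94.3% of changes of 1 and 99.8% of changes of 2 (log2) were recovered, and 4.50% of calls were false. The simulated noise was normal and independent between muscles, without the pairing within animals. Fewer genes were changed than were called at 2 days in the data, so these shares may differ there. The members and gene lists were chosen with earlier results of these data known. Named beside the members were list genes past the threshold at 1 or more time points and the 3 genes most correlated with each member, apart from items that are not reported here. Promoters came from RefSeq (GRCr8). Python 3.11.15 with numpy 2.4.6, pandas 2.3.3 and matplotlib 3.10.9 was used for tables and plots.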

Additional observations from a re-analysis of the deposited data

Results flagged for a closer look

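A tested difference between training times set apart 4 values, all of them among the trained muscles on the log2(value + 1) scale. Oaz2 was higher at 10 than at 2 days by 0.54 and higher at 30 than at 2 days by 0.45. Amd1 was higher at 30 than at 2 days by 0.58. Azin1 differed between 30 and 2 days by -0.50. With animal as a block none of the 4 passed (limma, adjusted p = 0.465 and 0.227 for Oaz2, 0.0933 for Amd1 and 0.397 for Azin1), and each kept its direction.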

How the results depend on the processing

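The 49 member results were recomputed to give 534 values under alternatives, of which 465 kept their direction and their side of the threshold. The cause of each change was not tested. A further 34 values changed sign, none of them past the threshold with either value. Animal as a block and controls of the same time point gave the same log2 differences and turned Oaz1 at 2 days (-0.12), Sms (0.046), Oaz1 (0.080) and Oaz2 (-0.032) at 10 days, and Odc1 at 20 (0.085) and 30 days (0.025). Under both, 1 member was higher at 10 days and 1 lower at 20 days, and with the replicate block 0 differed between 10 and 2 or between 30 and 2 days. The block changed no other call of a member.

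The values as deposited turned Sms (0.061) and Oaz1 (0.11) at 10 days and Azin1 at 30 days (-0.020), with 5 members lower at 30 days and 1 changed between 20 and 2 days. The gene-level table had 1, 1, 1 and 4 members lower at 2, 10, 20 and 30 days, and Oaz1 at 10 days (0.24) and Azin1 at 30 days (-0.17) turned sign. It holds 7 of the 9 members, without Smox and Sms. With a mean of at least 10, which leaves Smox out, 1, 1 and 0 members were lower at 10, 20 and 30 days. A pseudocount of 0.1 turned Srm at 20 days (-0.016), and the transcript with the highest mean turned Odc1 at 20 (0.042) and 30 days (0.032). Without the control library of 30 days replicate 1, Odc1 gave 0.014 at 20 days and 0.0046 at 30 days.

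Leaving out 1 trained muscle in turn gave 1 to 2 members higher at 10 days, and 0 to 1, 0 to 2 and 0 to 3 changed between 10 and 2, 20 and 2, and 30 and 2 days. The difference of Oaz2 between 10 and 2 days (0.48 to 0.57) was lost without 2-day replicate 2 or 3 or any 10-day muscle. Those between 30 and 2 days were lost for Oaz2 (0.40 to 0.48) without 2-day or 30-day replicate 2, and for Azin1 (-0.68 to -0.38) without 2-day replicate 2 or 3 or any 30-day muscle. The genes that never passed ranged across 0: Srm from -0.067 to 0.72 at 2 days, -1.06 to 0.29 at 10 days and -0.42 to 0.74 at 20 days, Oaz1 at the same times from -0.00072 to 0.16, -0.20 to 0.15 and -0.27 to 0.061, and Odc1 from -0.052 to 0.041 at 20 days and -0.053 to 0.012 at 30 days. Sms ranged from -0.24 to 0.14 and Oaz2 from -0.024 to 0.050 at 10 days. Of 391 values for the 30 calls of list genes (each 1 gene at 1 time point), 321 kept their call, 70 lost it and 0 turned. The depth of each sample cannot be read from the values, so counting error could not be given. With 3 animals per time point and 1 shared control pool, small differences of low genes such as Srm were not detectable.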
